A study of Oreochromis mossambicus with 6 samples.

Results

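The mitochondrial solute carriers (SLC25 family) were examined in gill filaments of hypophysectomized Mozambique tilapia (Oreochromis mossambicus). Members were the genes whose symbol in the deposited table starts with slc25a followed by a digit, in either case, with at least 10 counts summed over the 6 libraries. All 53 genes with such a symbol passed that minimum, out of 32591 genes in the table, of which 24878 were tested. Only 17210 genes in the table carry a symbol, so a carrier without one, or under another name, is not among the 53. The family below means these 53 genes. The tested fish received ovine prolactin (oPrl) at 5 μg per g body weight by intraperitoneal injection (n = 3), and their controls received saline vehicle (n = 3). All 6 were wild-type males, weighing 80 to 110 g per the series' design text, from which the pituitary had been removed. Every fish thus lacked the other pituitary hormones as well as its own Prl, which limits both groups as models of an intact fish. The fish recovered for 5 days in brackish water at 12 ppt and were injected 3 times, 48 h apart. Per the paper, they went without food both in recovery and after the injections. Filaments of the first left gill arch were taken 24 h after the last injection.

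Carriers of this family sit mainly in the inner mitochondrial membrane, where they move nucleotides, phosphate, amino acids, carboxylates, cofactors and metals between the cytosol and the matrix. A typical carrier is built from repeats of a pair of membrane helices and exchanges one solute for another. Gill ionocytes, which move salt across the gill, are packed with mitochondria that supply ATP to the Na+/K+-ATPase, so this exchange stands between respiration and ion transport. Teleosts often keep duplicates of a carrier gene, here written with the suffixes a and b. Roles below are those known from mammals or yeast. Gene lengths and sequences were not used here, so levels are compared between groups and not between genes.

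Expression is given in CPM, the counts of a gene scaled to a common library size with edgeR's TMM factors. A gene was called when edgeR's quasi-likelihood test gave an adjusted p under 0.01 (Benjamini-Hochberg over all 24878 genes) and the absolute log2 fold change, oPrl over vehicle, exceeded 1. The edgeR test gives no standard error (SE). The SE shown was back-calculated as the absolute log2 fold change over the square root of the test's F statistic. Libraries held 30516271 to 32959492 counts with oPrl and 21643589 to 35976655 with vehicle. With any single library left out, edgeR called between 0 and 215 genes in all, against 349 with every library. Replicate 2 of the oPrl group stood apart: 17 of the 53 carriers (32.1%) had over 1.5 times the mean of the other oPrl libraries there, compared with 15.6% of the genes tested. Only 6 carriers (11.3%) were as far below, compared with 24% of those genes.

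Across the family, the number of carriers called depended on the tool and the threshold. By edgeR only SLC25A30, a relative of the uncoupling proteins, was called, and it was lower with oPrl. That is 1 of 53 carriers (1.89%), against a background of 1.4% of all genes tested (0.715% called as higher and 0.687% as lower). DESeq2, the tool used in the study, called 6 carriers (11.3%) at the same thresholds, against 6.01% of all genes (3.08% higher and 2.94% lower): slc25a15a, slc25a35 and slc25a55b were higher, and SLC25A30, slc25a39 and slc25a55a were lower. The groups did not overlap in 16 carriers (30.2%), against 29% of all genes, 10 of them higher and 6 lower with oPrl, against 16.3% and 12.7%. An unadjusted edgeR p under 0.05 was found for 13 carriers (24.5%), against 21.7% of all genes. At an adjusted p under 0.05, 6 carriers passed (11.3%), against 6.11% of all genes, and 5 of these (9.43%) had an absolute log2 fold change over 1, against 4.61%. The shares thus lay near the background for the edgeR call, the unadjusted p and the overlap, and above it for the DESeq2 call and for edgeR at the looser threshold, where each count is of 6 genes or fewer. The family was chosen with earlier results of these data known, so these shares are not independent of the data. The log2 fold changes ran from -1.75 to 3.01 with a median of 0.03, against 0.02 over all genes. Positive and negative values were almost even, at 27 and 26, against 51.5% positive over all genes. When the libraries were scaled by their totals without TMM, the median of all genes moved to 0.19 and that of the carriers to 0.20, and 9 carriers changed from a negative to a positive value. Since filaments hold many cell types, a lower share of one cell type and less RNA per cell cannot be told apart in these values.

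**Figure D1:**
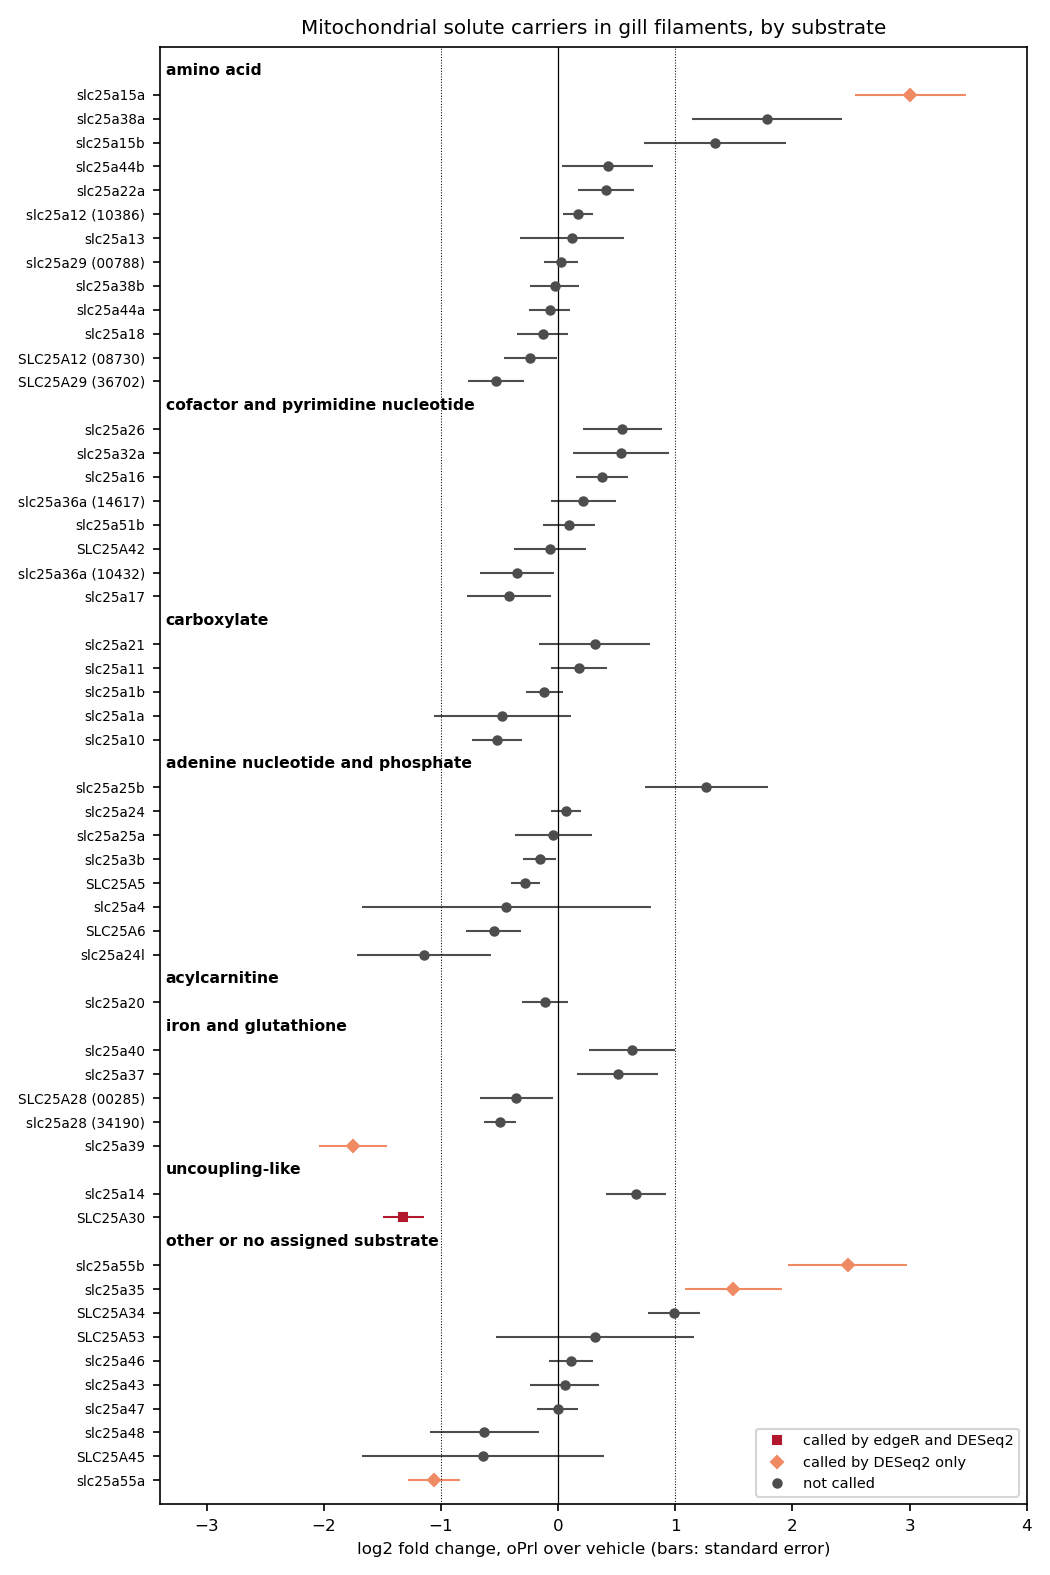
Log2 fold change of 52 of the 53 mitochondrial solute carriers (x axis, oPrl over vehicle, with standard errors), grouped by substrate, with dotted lines at -1 and 1 and the last 5 digits of the gene ID where 2 genes share a symbol. SLC25A30 at -1.32 is the single gene called by edgeR, 5 more are called by DESeq2 only, and most others lie near 0.

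The single call by edgeR was SLC25A30 (ENSONIG00000018700), known in mammals as the kidney mitochondrial carrier protein. Its expression was 41.7, 47.9 and 48.1 CPM in oPrl fish, against 107, 98.8 and 138 CPM in vehicle fish. All vehicle fish thus lay far above all oPrl fish, which were close together. The mean fell to 45.9 ± 3.64 CPM with oPrl, against a vehicle mean of 115 ± 20.4 CPM (SD, n = 3 each). This was 2.497-fold lower, or -1.32 on the log2 scale (SE 0.17, adjusted p = 0.00809, edgeR's quasi-likelihood test). DESeq2 gave -1.36. Leaving out single libraries gave values of -1.45 to -1.16, although the adjusted p by edgeR was then 0.0120 to 0.0449 and the call was lost each time. The other member grouped here as uncoupling-like, slc25a14 (ENSONIG00000013243), known as the brain carrier protein, lay on the opposite side. It had 6.66, 9.49 and 6.31 CPM with oPrl, against 4.86, 5.06 and 4.22 CPM with vehicle. Its groups did not overlap, and its log2 fold change of 0.67 (SE 0.26) was not past the threshold (adjusted p = 0.188, edgeR).

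In the iron and glutathione group, slc25a39 and slc25a40 are a related pair of carriers linked to the import of glutathione into the matrix. Expression of slc25a39 (ENSONIG00000036004) was 31.1, 50.4 and 23.4 CPM in oPrl fish, against 106, 109 and 138 CPM in vehicle fish. Every oPrl fish was far below every vehicle fish, with replicate 2 the highest of them. The log2 fold change was -1.75 (SE 0.29), with an adjusted p of 0.0175 by edgeR, above the threshold, and -1.79 with an adjusted p of 7.80e-07 by DESeq2, which called it. Without oPrl replicate 2 it was -2.11 and past the edgeR threshold (adjusted p = 0.00725). The partner slc25a40 (ENSONIG00000006164) had 14.55, 34.5 and 14.001 CPM with oPrl, against 14.006, 11.9 and 14.9 CPM with vehicle. Its groups overlapped, with only oPrl replicate 2 high, and its log2 fold change of 0.63 was 0.07 without that library (adjusted p = 0.378 and 0.881, edgeR).

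The remaining members of this group are the mitoferrins, which bring iron into the matrix for heme and iron-sulfur clusters. A pair of genes carries the mitoferrin 2 symbol. The gene slc25a28 (ENSONIG00000034190) had 97.0, 92.1 and 81.2 CPM with oPrl, against 123, 127 and 131 CPM with vehicle, with tight groups that did not overlap. Its log2 fold change was -0.50 (SE 0.14, adjusted p = 0.0816, edgeR). DESeq2 gave -0.53 (adjusted p = 0.00455), short of the fold threshold for a call. The second gene, SLC25A28 (ENSONIG00000000285), had 23.2, 39.1 and 19.2 CPM with oPrl, against 44.3, 26.3 and 33.9 CPM with vehicle, which overlapped. Mitoferrin 1, slc25a37, which serves red blood cell precursors, had a log2 fold change of 0.51 with overlapping groups (adjusted p = 0.454, edgeR). Of the 5 genes in the group, edgeR called 0 and DESeq2 called 1 (20%, against 6.01% of all genes). An unadjusted edgeR p under 0.05 was found for 2, against 21.7% of all genes.

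**Figure D2:**
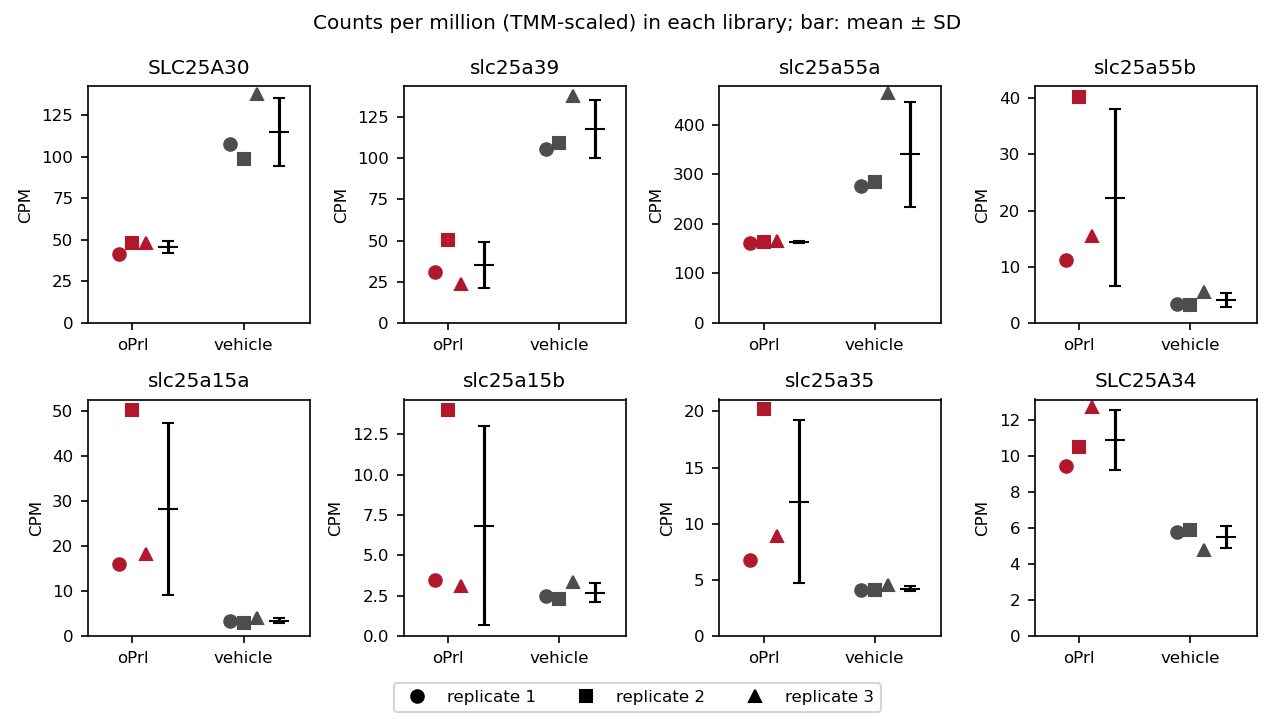
CPM in each library (y axis, from 0) for the 6 carriers called by DESeq2, the duplicate slc25a15b and SLC25A34, with oPrl in red, vehicle in gray and the mean ± SD at the right of each group (n = 3). SLC25A30, slc25a39 and slc25a55a lie lower in all oPrl fish, and oPrl replicate 2 is far above the other oPrl fish for slc25a55b, slc25a15a, slc25a15b and slc25a35.

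Among the amino acid carriers, the largest difference of the whole family was in slc25a15a (ENSONIG00000033095), an ornithine carrier that links the cytosolic and matrix steps of ornithine and arginine metabolism. Its expression was 16.1, 50.2 and 18.4 CPM in oPrl fish, against 3.48, 2.95 and 4.12 CPM in vehicle fish. The lowest oPrl fish was well above the highest vehicle fish, and oPrl replicate 2 was again far above the others. This was 3.01 on the log2 scale (SE 0.47), but the adjusted p by edgeR was 0.0147. DESeq2 called it at 2.97 (adjusted p = 8.46e-09). Without oPrl replicate 2 the value was smaller, at 2.30, and past the edgeR threshold (adjusted p = 0.00702). With every library and no TMM factor the value was larger, at 3.15, and also past the edgeR threshold (adjusted p = 0.00830). The duplicate slc25a15b (ENSONIG00000004180) had 3.46, 13.97 and 3.11 CPM with oPrl, against 2.47, 2.30 and 3.36 CPM with vehicle. Its groups overlapped, and its log2 fold change of 1.34 was 0.28 without oPrl replicate 2 (adjusted p = 0.254 and 0.699, edgeR).

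The glycine carrier of heme synthesis, slc25a38, is also duplicated. Expression of slc25a38a (ENSONIG00000008160) was low, with 31, 74 and 18 counts in oPrl fish, against 10, 14 and 5 counts in vehicle fish. In CPM this was 0.917, 2.27 and 0.509 with oPrl, against 0.405, 0.398 and 0.254 with vehicle, so that the groups lay just apart. Its log2 fold change of 1.78 (SE 0.64) had an adjusted p of 0.163 by edgeR, and without oPrl replicate 2 it was 0.995. The better covered duplicate slc25a38b (ENSONIG00000035962) had 8.70, 8.72 and 7.27 CPM with oPrl, against 8.46, 7.30 and 9.46 CPM with vehicle, and a log2 fold change of -0.03 (SE 0.21).

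Aspartate and glutamate carriers feed the malate-aspartate shuttle, which brings reducing equivalents into the matrix. The calcium-regulated carrier slc25a12 (ENSONIG00000010386) had 163, 175 and 167 CPM with oPrl, against 146, 146 and 156 CPM with vehicle. Every oPrl fish was above every vehicle fish, but by little, at a log2 fold change of 0.17 (SE 0.13, adjusted p = 0.494, edgeR). The gene listed as SLC25A12 (ENSONIG00000008730) had -0.24 with overlapping groups. The glutamate carrier slc25a22a had 9.88, 9.37 and 10.1 CPM with oPrl, against 7.93, 8.69 and 5.39 CPM with vehicle, which did not overlap (log2 fold change 0.41, SE 0.24, adjusted p = 0.381, edgeR). For slc25a13, slc25a18, both slc25a29 genes, slc25a44a and slc25a44b, log2 fold changes lay within the range of -0.53 to 0.42 and the groups overlapped. Of the 13 amino acid carriers edgeR called 0 and DESeq2 called 1 (7.69%, against 6.01% of all genes). In 2 the unadjusted edgeR p was under 0.05, against 21.7% of all genes, and the median log2 fold change was 0.11.

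The 10 carriers grouped here as having another or no assigned substrate held 3 of the 6 calls by DESeq2. That is 30% of these carriers, against 6.01% of all genes, and edgeR called 0 of them, against 1.4%. Expression of slc25a55a (ENSONIG00000014686), one of the 5 carriers with most counts, was 161, 164 and 166 CPM in oPrl fish, against 276, 284 and 463 CPM in vehicle fish. The oPrl fish were nearly equal, and vehicle replicate 3 was far above the other vehicle fish. The log2 fold change was -1.06 (SE 0.22, adjusted p = 0.0354, edgeR). It was -0.77 with a library left out at its smallest and -0.88 without TMM. Its duplicate slc25a55b (ENSONIG00000012357) lay in the opposite direction, at 11.3, 40.3 and 15.4 CPM with oPrl, against 3.40, 3.27 and 5.44 CPM with vehicle. Here too the groups did not overlap, with a log2 fold change of 2.47 (SE 0.51, adjusted p = 0.0346, edgeR) that was 1.73 without oPrl replicate 2 (adjusted p = 0.0331). By DESeq2 the adjusted p was 4.14e-04 for slc25a55a and 2.88e-05 for slc25a55b.

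A further related pair, slc25a35 and SLC25A34, was higher in every oPrl fish. The values of slc25a35 (ENSONIG00000004167) were 6.83, 20.2 and 8.88 CPM with oPrl, against 4.09, 4.12 and 4.53 CPM with vehicle. Its log2 fold change of 1.497 (SE 0.42, adjusted p = 0.0862, edgeR) was called by DESeq2 (adjusted p = 0.00791) and was 0.89 without oPrl replicate 2 (adjusted p = 0.1001, edgeR). For SLC25A34 (ENSONIG00000018901) the values were 9.46, 10.47 and 12.7 CPM with oPrl, against 5.79, 5.88 and 4.78 CPM with vehicle. Replicate 2 did not stand out here, and the log2 fold change of 0.99 (SE 0.22, adjusted p = 0.0452, edgeR) was 1.01 without it. DESeq2 gave 0.95 (adjusted p = 8.62e-04), short of the fold threshold for a call. Of the remaining genes with another or no assigned substrate, slc25a43, SLC25A45, slc25a46, slc25a47, slc25a48 and SLC25A53, none had groups apart. SLC25A45 had at most 7 counts in a library.

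Duplicates can be compared within a library, where no scaling between libraries enters. For the 6 pairs with the suffixes a and b, the log2 ratio of b over a (with 0.5 counts added) was taken in each library. For slc25a55 it was -3.83, -2.02 and -3.43 in oPrl fish, against -6.33, -6.43 and -6.40 in vehicle fish, so that slc25a55b took a larger share of the pair in every oPrl fish. The mean was -3.09 ± 0.95 with oPrl and -6.39 ± 0.05 with vehicle (SD over 3 libraries each), and they differed by 3.30. For slc25a15 the ratio was -2.22, -1.84 and -2.56 with oPrl, against -0.49, -0.36 and -0.29 with vehicle, a difference of -1.82, so that the share moved toward slc25a15a. In slc25a25, calcium-regulated carriers of ATP-Mg and phosphate, the difference was 1.28, and in slc25a38 it was -1.53. In each of these 4 pairs the groups did not overlap (exact permutation test, two-sided, p = 0.1 for each, the smallest p that 3 fish against 3 allow, and 0.15 after adjustment over the 6 pairs). The pairs slc25a1 and slc25a44 differed by 0.37 and 0.49, with overlapping groups (exact p = 0.3 for each). Counts per library were low in slc25a25b, at 16 to 110, and in slc25a38a, at 5 to 74, and slc25a1a had at most 8. How often the groups lie apart in duplicate pairs outside the family was not computed. Only uniquely mapped reads were counted, so reads shared by near-identical copies could have been lost or placed on the wrong copy. This was not tested.

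**Figure D3:**
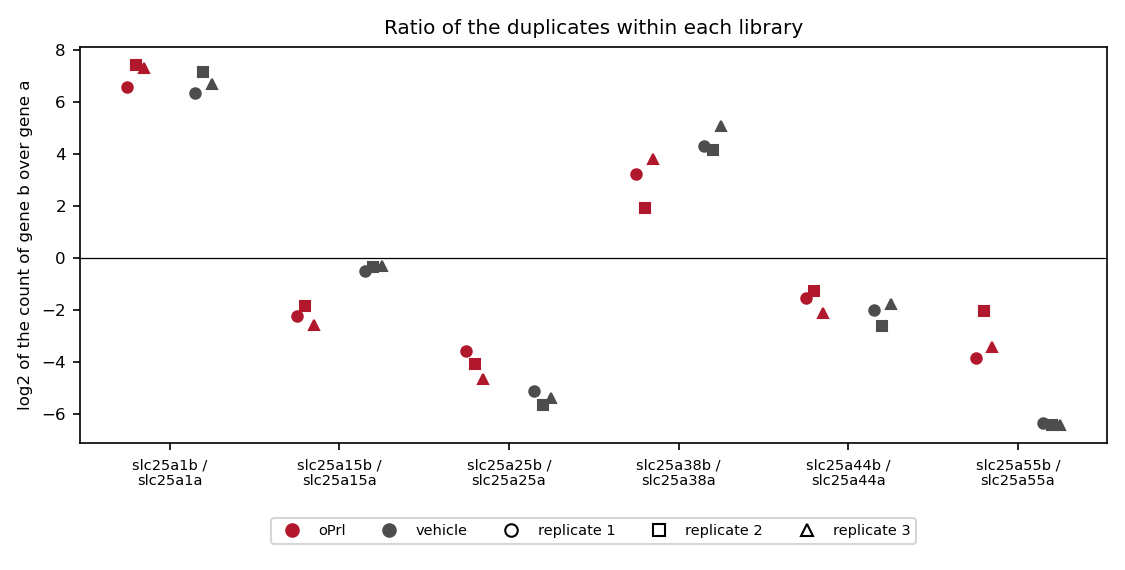
Log2 ratio of the counts of gene b over gene a (y axis) within each library for 6 pairs of duplicates, with oPrl in red, vehicle in gray and one symbol shape per replicate number. The slc25a55 ratio lies between -3.83 and -2.02 in oPrl fish, above -6.43 to -6.33 in vehicle fish, and the slc25a15 ratio lies lower in oPrl fish.

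The carriers of ATP, ADP and phosphate took most of the family's reads. The 5 members with most counts were the adenine nucleotide translocases SLC25A5 and SLC25A6, the phosphate carrier slc25a3b, the oxoglutarate carrier slc25a11 and slc25a55a, and together they held 79.1% of all counts of the family. SLC25A5 (ENSONIG00000002822), which exchanges matrix ATP for cytosolic ADP, had 2532, 2741 and 2407 CPM in oPrl fish, against 3127, 2845 and 3346 CPM in vehicle fish. The groups lay apart by a narrow margin, with a log2 fold change of -0.28 (SE 0.12, adjusted p = 0.248, edgeR) that was -0.11 without TMM. As a share of all counts of a library, before any TMM scaling, SLC25A5 made up 0.281%, 0.271% and 0.263% with oPrl, against 0.294%, 0.278% and 0.304% with vehicle. These unscaled shares overlapped, so the groups lay apart only with TMM scaling. SLC25A6 (ENSONIG00000005191) had 352, 306 and 355 CPM with oPrl, against 558, 327 and 599 CPM with vehicle, and slc25a3b (ENSONIG00000001712) had 715, 822 and 770 CPM, against 920, 743 and 909 CPM. Both overlapped, with log2 fold changes of -0.55 and -0.16 (adjusted p = 0.228 and 0.586, edgeR). The whole family summed to 4967 to 5528 CPM with oPrl, against 5495 to 6828 CPM with vehicle.

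The muscle form of the translocase, slc25a4 (ENSONIG00000017595), was described after its values had been seen. It had 57, 33 and 106 counts in oPrl fish, against 84, 0 and 87 counts in vehicle fish, or 1.69, 1.01 and 2.998 CPM with oPrl, against 3.40, 0 and 4.43 CPM with vehicle. A count of 0 in vehicle replicate 2 allows up to 0.0852 CPM (3 counts, counting error only). Summed over 7 skeletal muscle genes, the same libraries had 39.8, 37.3 and 70.7 CPM with oPrl, against 101, 1.96 and 210 CPM with vehicle. The 6 libraries stood in the same order for slc25a4 and for the muscle genes, lowest in vehicle replicate 2 and highest in vehicle replicate 3. The log2 fold change of slc25a4 was -0.44 (SE 1.24, adjusted p = 0.880, edgeR).

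The ATP-Mg and phosphate carriers adjust the nucleotide pool of the matrix. Expression of slc25a25b (ENSONIG00000011301) was 2.22, 3.38 and 1.05 CPM with oPrl, against 1.30, 0.653 and 0.814 CPM with vehicle, and that of slc25a25a (ENSONIG00000013984) was 26.6, 57.8 and 26.5 CPM, against 45.5, 33.6 and 35.2 CPM. Both overlapped, with log2 fold changes of 1.26 (SE 0.52) and -0.04 (SE 0.33), and slc25a25a was at -0.52 without oPrl replicate 2 (adjusted p = 0.186, edgeR). The gene slc25a24l (ENSONIG00000018403) had 1.57, 0.307 and 1.16 CPM with oPrl, against 2.19, 2.64 and 1.88 CPM with vehicle. Every oPrl fish was below every vehicle fish, and the log2 fold change of -1.14 (SE 0.57) was not past the threshold (adjusted p = 0.303, edgeR). That of slc25a24 was 0.06, with overlapping groups. None of the 8 carriers of adenine nucleotides and phosphate was called by edgeR or DESeq2, against 1.4% and 6.01% of all genes. In 2 the unadjusted edgeR p was under 0.05, against 21.7% of all genes.

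Carboxylate carriers export or exchange citrate, malate, succinate and oxoglutarate. The dicarboxylate carrier slc25a10 (ENSONIG00000016462) had 25.8, 24.4 and 25.4 CPM with oPrl, against 42.7, 40.1 and 25.5 CPM with vehicle. A pair of vehicle fish was far above all others, while vehicle replicate 3 was level with the oPrl fish, and the log2 fold change was -0.52 (SE 0.22, adjusted p = 0.217, edgeR). The oxoglutarate carrier slc25a11 (ENSONIG00000009192) had 182, 243 and 204 CPM with oPrl, against 203, 125 and 227 CPM with vehicle (log2 fold change 0.18, SE 0.24). The citrate carrier slc25a1b, the oxoadipate carrier slc25a21 and the acylcarnitine carrier slc25a20, which brings fatty acids to the matrix for oxidation, had values of -0.12, 0.31 and -0.12 with overlapping groups. Of the 5 carboxylate carriers, edgeR and DESeq2 called 0, against 1.4% and 6.01% of all genes. An unadjusted edgeR p under 0.05 was found for 1, against 21.7% of all genes.

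For the carriers of cofactors and pyrimidine nucleotides, differences were small. The gene slc25a16 had 18.6, 27.6 and 18.2 CPM with oPrl, against 17.9, 14.3 and 17.6 CPM with vehicle. All oPrl fish were above all vehicle fish, with a log2 fold change of 0.37 (SE 0.22, adjusted p = 0.387, edgeR). The folate and FAD carrier slc25a32a had 8.73, 20.4 and 7.07 CPM with oPrl, against 9.43, 6.96 and 8.55 CPM with vehicle. Only oPrl replicate 2 was high, and the log2 fold change of 0.54 was -0.07 without it. The S-adenosylmethionine carrier slc25a26, the peroxisomal carrier slc25a17, the coenzyme A carrier SLC25A42, the NAD+ carrier slc25a51b and both pyrimidine nucleotide carriers listed as slc25a36a had overlapping groups. Of the 9 genes, edgeR and DESeq2 called 0, against 1.4% and 6.01% of all genes. An unadjusted edgeR p under 0.05 was found for 0, against 21.7% of all genes. The median log2 fold change was 0.21.

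Genes that work beside the carriers were counted by lists, whose 102 genes tested held 1 call by edgeR (0.98%, against 1.4% of all genes) and 7 by DESeq2 (6.86%, against 6.01%). An unadjusted edgeR p under 0.05 was found for 31 of them (30.4%), against 21.7% of all genes. The lists were chosen with earlier results of these data known. Shares above those of all genes, here and in the single lists below, are thus not independent of these data. The call was gls2a (ENSONIG00000017028), a glutaminase that makes glutamate in the matrix, with 5.56, 13.85 and 6.96 CPM in oPrl fish, against 0.891, 0.653 and 0.916 CPM in vehicle fish. The groups lay far apart, and the log2 fold change was 3.43 (SE 0.43, adjusted p = 0.00753, edgeR). With oPrl replicate 2 left out it was 2.94 and past the threshold (adjusted p = 0.00930), and with any other library left out it was not (adjusted p up to 0.0440). In the same list of 24 ornithine, proline and glutamate genes, prodhb, a proline dehydrogenase, had 51.9, 48.5 and 47.4 CPM with oPrl, against 93.7, 89.3 and 88.4 CPM with vehicle. Its log2 fold change of -0.88 (SE 0.13, adjusted p = 0.0115, edgeR) came with tight groups that did not overlap. DESeq2 called prodha, at an edgeR log2 fold change of -1.39 that was -1.96 without oPrl replicate 2. The ornithine aminotransferase oat had 40.7, 98.3 and 40.02 CPM with oPrl, against 46.3, 42.5 and 58.9 CPM with vehicle, and was high only in oPrl replicate 2. Of the 24 genes, edgeR called 1 (4.17%, against 1.4% of all genes) and DESeq2 2 (8.33%, against 6.01%). An unadjusted edgeR p under 0.05 was found for 11 (45.8%), against 21.7% of all genes.

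The genes of folate-dependent one-carbon metabolism had the highest median of any list, 0.94 over 14 genes, and this rested on oPrl replicate 2. Without that library the median was 0.23. The matrix enzymes mthfd2, a methylenetetrahydrofolate dehydrogenase, and mthfd1l, a formyltetrahydrofolate synthetase, had 88.2 and 87.8 CPM there, against 7.52 to 9.29 and 3.67 to 11.7 CPM in the other oPrl fish, and aldh18a1 (ENSONIG00000016250), which starts proline synthesis, had 80.1 CPM, against 1.42 and 2.01 CPM. Of the 17 carriers over 1.5 times the mean of the other oPrl fish in that library, slc25a15b (4.25 times), slc25a38a (3.19 times), slc25a55b (3.02 times), slc25a15a (2.91 times) and SLC25A45 (2.60 times, at 5 counts) had the highest ratios, and the remaining 12 had ratios of 1.64 to 2.58. By contrast, the cytosolic serine hydroxymethyltransferase shmt1 had 24.5, 24.5 and 23.4 CPM with oPrl, against 6.07, 5.88 and 10.4 CPM with vehicle. Its log2 fold change was 1.70 (SE 0.26, adjusted p = 0.0123, edgeR), and DESeq2 called it. The second smallest p of the list was that of mthfd1b, also a cytosolic enzyme of the folate cycle, at 1.23 (adjusted p = 0.0506, edgeR). Of the 14 genes edgeR called 0 and DESeq2 2 (14.3%, against 6.01% of all genes). An unadjusted edgeR p under 0.05 was found for 5 (35.7%), against 21.7% of all genes.

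Among 20 other transport genes of the mitochondrial membranes, edgeR called 0 and DESeq2 3 (15%, against 6.01% of all genes). Of these 20, 9 (45%) had an unadjusted edgeR p under 0.05, against 21.7% of all genes. The pyruvate carrier subunit mpc2 had 104, 132 and 108 CPM with oPrl, against 52.8, 49.1 and 64.3 CPM with vehicle (log2 fold change 1.05, SE 0.17, adjusted p = 0.0161, edgeR), while its partner mpc1 had overlapping groups at 0.05 (SE 0.18). MCUB, a dominant-negative subunit of the calcium uniporter that entered the list beside mcu through its suffix, had 102, 93.9 and 94.7 CPM with oPrl, against 169, 178 and 209 CPM with vehicle (log2 fold change -0.94, SE 0.14, adjusted p = 0.0132, edgeR). The pore protein vdac3 of the outer membrane had 38.4, 23.5 and 30.2 CPM with oPrl, against 70.7, 66.1 and 88.6 CPM with vehicle, and DESeq2 called it at an edgeR log2 fold change of -1.29, as it did sfxn3, a sideroflexin, at 1.10. The uncoupling proteins ucp2 and ucp3 are relatives of SLC25A30, but their symbols kept them out of the members counted here. Expression of ucp2 and ucp3 averaged 0.145 and 2.41 CPM with oPrl, against 0.474 and 1.44 CPM with vehicle, and neither was called by edgeR.

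In the list for protein import, through which carriers reach the inner membrane, 14 of 16 genes had a positive log2 fold change, with a median of 0.30. In 15 of the 16, oPrl replicate 2 was the highest oPrl library, against 41.2% of all genes. Its genes with the smallest p were tomm70a, a receptor for carriers on the outer membrane, at 0.56, and tomm20b, at -0.41 (adjusted p = 0.160 and 0.169, edgeR). In the heme and iron-sulfur list of 20 genes, the scaffold iscub had 155, 143 and 129 CPM with oPrl, against 251, 230 and 316 CPM with vehicle, a log2 fold change of -0.90 (SE 0.17, adjusted p = 0.0251, edgeR). The heme enzyme ppox followed at 0.65 (adjusted p = 0.0979, edgeR). In the glutathione list of 8 genes the smallest p belonged to gpx4b at 0.46 and gpx1b at 0.36, both with overlapping groups. In these 3 lists edgeR and DESeq2 called 0 genes, against 1.4% and 6.01% of all genes. In them 2 (12.5%), 4 (20%) and 0 genes had an unadjusted edgeR p under 0.05, against 21.7% of all genes.

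**Figure D4:**
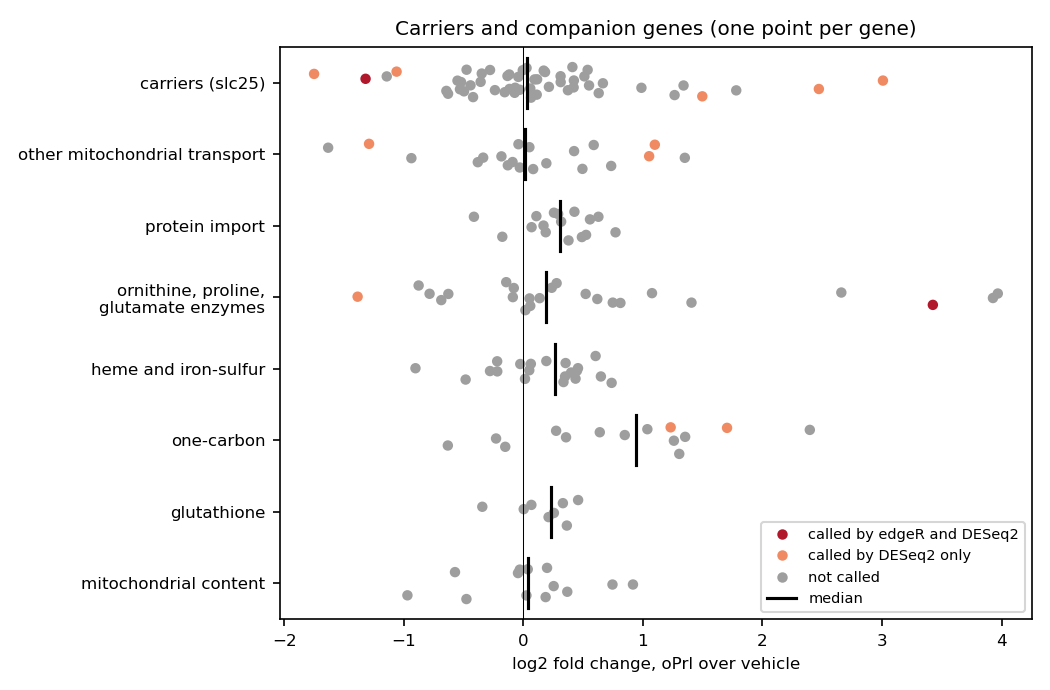
Log2 fold change (x axis, oPrl over vehicle) of each carrier and of each gene in 7 lists of companion genes, with the median of each list as a black bar and calls in color. The carriers center near 0 and the one-carbon list has the highest median, 0.94, which was 0.23 without oPrl replicate 2.

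Nuclear genes of respiration and related markers of mitochondrial content (13 genes) had a median log2 fold change of 0.04 and summed to 3189 to 3658 CPM with oPrl, against 2794 to 4033 CPM with vehicle. Ionocyte markers (10 genes) summed to 3501 to 4071 CPM with oPrl, against 4633 to 6529 CPM with vehicle, which did not overlap. Gene by gene, 6 had a negative and 4 a positive log2 fold change, and 7 had overlapping groups. Of the 10, edgeR called 0 and DESeq2 2 (20%, against 6.01% of all genes). An unadjusted edgeR p under 0.05 was found for 4, against 21.7% of all genes. The sum was weighted by the Na+/K+-ATPase subunit atp1a1b, which had 1156 ± 117 CPM with oPrl, against 2570 ± 472 CPM in vehicle fish (SD, n = 3 each), whereas the ionocyte factor foxi3b had 159 ± 10.3 CPM with oPrl, against 139 ± 22.2 CPM. Their part in the lower values of SLC25A30, slc25a39 and slc25a55a was not tested. Leukocyte markers (6 genes) summed to 1524 to 1734 CPM with oPrl, against 1577 to 1970 CPM with vehicle, and erythrocyte markers (8 genes) to 468 to 963 CPM, against 424 to 773 CPM. In both the groups overlapped, and edgeR and DESeq2 called 0 genes, against 1.4% and 6.01% of all genes. An unadjusted edgeR p under 0.05 was found for 1 and 0 genes, against 21.7% of all genes. Among these markers, slc12a3 and epb41a averaged under 1 CPM in both groups.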

How the data were processed

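Total RNA from gill filaments of 6 fish was sequenced as paired reads. Per the paper's methods and the submitters' processing notes, the authors demultiplexed with bcl2fastq 2.20, trimmed adapters with Trimmomatic 0.36, mapped the reads with STAR 2.5.2b to Ensembl's Nile tilapia genome, and featureCounts gave uniquely mapped reads for each gene. Neither the build nor the strandedness of counting is stated in the sources used here. Deposited values are raw counts per gene, not normalized. Each of the 6 columns was matched to a sample by its name. A row with no gene ID, 0.0901% to 0.135% of a library's counts, was left out.

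Genes with at least 10 counts in all were tested with edgeR 4.0.16 (TMM, quasi-likelihood) in R 4.3.3. DESeq2 1.42.0, which the study used, was an alternative, and it gave no adjusted p for 3981 genes, 2 carriers among them. The test scripts were tested on simulated counts. Further alternatives were a block on the replicate number, library totals without TMM, a robust fit, other thresholds, other filters on low counts and each library left out in turn. Libraries of one group differed by more than sampling noise (chi-square per degree of freedom 28.4 to 107) and each entered as its own sample. The labels do not say more of the replicates than their number, and the paper describes them as separate fish.

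The carriers and lists were chosen with earlier results of these data known. Values per library are given for carriers called by either tool, the 12 with the smallest edgeR p, the 5 with most counts and duplicates of opposite sign with either p under 0.05. Other carriers were added after their values were seen. The values of 1 carrier are not reported here, although it is in every count of the family. From the lists, called genes and the 2 smallest p of each list were named, and other list genes were added after their values were seen. A list gene matched if its symbol was the listed one, with or without one more suffix letter. Gene length, sequence and coordinates were not used here.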

Additional observations from a re-analysis of the deposited data

How the results depend on the processing

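The number of carriers called by edgeR depended on most settings. Against 1 with the settings reported, it was 6 with DESeq2, 2 without TMM, 2 with no filter on low counts (at least 1 count), 5 at an adjusted p under 0.05 with a log2 fold change over 1 and 6 at an adjusted p under 0.05 with no fold threshold. It was 1 with edgeR's own count filter, with a robust fit and with no fold threshold at 0.01. Over all genes the call count of 349 became 1496 with DESeq2, 1147 at an adjusted p under 0.05 with a log2 fold change over 1 and 1520 with no fold threshold. Without TMM it was 505, with 358 higher and 147 lower, compared with 178 and 171. In the companion lists the count of 1 became 7 with DESeq2, 3 without TMM, 2 with no filter on low counts, 5 at an adjusted p under 0.05 with a log2 fold change over 1 and 8 with no fold threshold. With each library left out, the counts were 0 to 2 carriers, 0 to 215 genes in all and 0 to 2 companion genes. Deviations of same-numbered libraries from their group means had correlations of -0.118, -0.0222 and 0.0110. Each oPrl library correlated best with a vehicle library of another number, whereas vehicle replicate 3 correlated best with the oPrl library of its own number. Such values, from 3 libraries per group, cannot decide whether the replicate numbers pair fish. With the replicate block, 0 carriers, 30 genes in all and 0 companion genes were called, and SLC25A30 was at -1.31 (adjusted p = 0.0261, edgeR).

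Some small values changed sign. Without TMM, slc25a25a was at 0.10, slc25a3b at 0.017 and slc25a38b at 0.15. With a library left out, slc25a25a ranged from -0.52 to 0.15, slc25a11 from -0.069 to 0.35, slc25a38b from -0.16 to 0.068, slc25a32a from -0.073 to 0.81 and slc25a4 from -1.07 to 0.17, and slc25a4 was at 0.43 with the replicate block. None of these carriers was called at any setting. With 5 counts added in place of 0.5, or with a library left out, no duplicate pair changed direction. The cause of these changes was not tested. Depth limits the carriers with few counts, such as slc25a1a and SLC25A45 with at most 8 and 7 counts in a library.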
